A study of Rattus norvegicus with 2 samples.

Results

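Glycolysis splits glucose into pyruvate in the cytosol, and lactate dehydrogenase then turns pyruvate into lactate. The upper pathway spends ATP to phosphorylate and cleave the sugar, and the lower pathway returns ATP and NADH. Lactate dehydrogenase is a tetramer of the subunits encoded by Ldha, which is prominent in tissues that release lactate, and Ldhb, which is prominent in tissues that use it. Many genes of the pathway are known targets of the transcription factors HIF-1 and MYC.

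The 10 genes described here were listed by symbol, and all 10 were found among the 18256 genes of the series. The upper pathway was represented by Hk2 (hexokinase 2), Pfkp (platelet-type phosphofructokinase), Aldoa (aldolase A) and Tpi1 (triosephosphate isomerase). The lower pathway was represented by Gapdh (glyceraldehyde-3-phosphate dehydrogenase), Pgk1 (phosphoglycerate kinase), Pgam1 (phosphoglycerate mutase) and Eno1 (enolase 1). Ldha (ENSRNOG00000013009) and Ldhb (ENSRNOG00000013000) encode the lactate dehydrogenases. They were measured by single-cell RNA sequencing in the rat small intestinal epithelial line IEC-6, grown in high-glucose medium with serum and insulin. A library labelled TNF came from cells given 10 cycles of 72 hours with 100 ng/mL of rat tumor necrosis factor (TNF), an inflammatory cytokine. A control library came from cells given phosphate-buffered saline, also for 10 cycles. Each group is 1 library, so no difference has a replicate check, no test between the conditions was made, and all intervals are 95% intervals of counting error.

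The library labelled TNF held 3457 cells and 14604393 counts, with a median of 3566 counts per cell, and the control library 5712 cells and 24207943 counts, with a median of 2902.5. The 2 barcode lists shared 24 barcodes. Of the epithelial markers, Krt8 and Cdh1 were abundant, whereas Epcam had 4 counts and Vil1 at most 13 in either library, and Col1a1, a collagen gene typical of fibroblasts, stood at 393 and 355 CPM (counts per 1000000, library labelled TNF first). The fibroblast gene Col1a2 was at 18.6 and 16.4 CPM (ratio 1.13, 0.966 to 1.32). Lower in the library labelled TNF were Krt18 at 27.0 and 93.4 CPM and Spint2 at 36.7 and 140 CPM. So were Col3a1 at 4.18 and 40.5 CPM and Dcn at 103 and 234 CPM. The 6 epithelial markers listed summed to 2571 CPM in the library labelled TNF and 3114 CPM in the control library, and the 8 fibroblast and muscle markers to 520 and 650 CPM, and their part in the results was not tested. The white blood cell, endothelial and erythroid lists each summed to under 6 CPM in either library, from 1.37 and 5.74, 0.274 and 0.909, and 1.16 and 1.28 CPM. Of genes that TNF is known to induce, named after their values were seen, the chemokine gene Ccl2 was at 60.9 CPM in the library labelled TNF and 969.8 CPM in the control library. Nfkbia, an inhibitor of NF-kB, was at 112 and 626 CPM, and the adhesion gene Icam1 at 131 and 104 CPM. Because Ccl2 and Nfkbia go against the label, directions are stated of the library labelled TNF and not of the treatment. The sample titles also carry different prefixes of unknown meaning, and a difference in preparation cannot be told apart from the treatment.

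The stretch before the gene start is shown for 4 members, namely Ldha and Ldhb because the results contrast them, and Gapdh and Pgam1 because they were the members at least 2-fold lower in the library labelled TNF. The sequences are the 250 bases upstream of the start, 5′ to 3′, from RefSeq on the build GRCr8, which differs from the build behind the counts. Capitals mark ACGTG on either strand, a form of the core of HIF-1 binding sites, whose first base can also be G. ACGTG is also part of CACGTG, the E-box bound by MYC.
Ldha, chr1:106507842-106508091, plus strand: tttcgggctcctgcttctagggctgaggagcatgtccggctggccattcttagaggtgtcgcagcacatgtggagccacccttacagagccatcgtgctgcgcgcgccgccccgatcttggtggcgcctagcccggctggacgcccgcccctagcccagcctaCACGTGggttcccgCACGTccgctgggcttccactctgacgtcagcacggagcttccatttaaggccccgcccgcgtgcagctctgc
Gapdh, chr4:159652468-159652717, minus strand: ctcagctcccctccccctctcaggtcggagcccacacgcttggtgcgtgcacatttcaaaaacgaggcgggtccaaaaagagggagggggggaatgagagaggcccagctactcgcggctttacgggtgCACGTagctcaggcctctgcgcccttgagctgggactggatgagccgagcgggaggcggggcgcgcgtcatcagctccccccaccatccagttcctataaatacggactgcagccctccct
Pgam1, chr1:250672902-250673151, plus strand: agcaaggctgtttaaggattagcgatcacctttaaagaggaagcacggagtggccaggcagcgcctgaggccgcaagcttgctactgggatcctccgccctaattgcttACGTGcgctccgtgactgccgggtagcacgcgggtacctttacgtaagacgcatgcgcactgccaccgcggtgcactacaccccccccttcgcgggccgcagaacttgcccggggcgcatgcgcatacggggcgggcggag
Ldhb, chr4:177177409-177177658, minus strand: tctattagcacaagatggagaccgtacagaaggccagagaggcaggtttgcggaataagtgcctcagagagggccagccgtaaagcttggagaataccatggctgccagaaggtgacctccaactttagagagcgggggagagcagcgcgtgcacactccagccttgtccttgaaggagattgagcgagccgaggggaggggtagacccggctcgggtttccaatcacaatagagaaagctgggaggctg

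The Ldha stretch held ACGTG at 3 positions, starting 87, 86 and 73 bases before the gene start, and the first pair of these overlap as CACGTG. Gapdh held it 121 and Pgam1 141 bases before the start, and Ldhb did not hold it in these 250 bases. Of 12 such stretches for 9 members, 4 held the motif, the remaining one being 1 of 3 annotated starts of Aldoa. Eno1, which was also lower in the library labelled TNF, did not hold it in any stretch, and neither did Hk2, Pfkp or Tpi1. Pgk1, another lower member, had no stretch to read. Among 7047 stretches of genes measured at 10 CPM or more, 1604 (22.8%) held it. The GC content was 66.4% for Ldha and 56.4% for Ldhb, against a median of 60.8% over those 7047, and the Ldha stretch held 22 CpG pairs and the Ldhb stretch 10, against a median of 17. The form of the core that starts with G, GCGTG, was not counted. It occurs in every stretch shown, that of Ldhb included, counting either strand. Matches of this kind describe letters in a window and show no binding.

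The abundant members Aldoa, Gapdh, Pgk1, Pgam1, Eno1 and Ldha were lower in the library labelled TNF, Hk2 was near equal, Pfkp had a ratio slightly above 1, and Ldhb was higher. A gene was called at a ratio (TNF-labelled over control) of at least 2 in either direction, provided that it reached 10 CPM in either library. Of the 10 members, 2 were called lower, read beside 8.19% of the 8550 genes that reached that level, and 1 was called higher, beside 5.27%. The whole counting interval lay past 2-fold for the same 2 lower members, beside 5.17% of genes, and for the same 1 higher member, beside 3.56%. At a ratio of 1.5 or more, 6 of the 10 were lower, beside 22.2% of genes. The median log2 ratio of the 10 was -0.72, and that of the 8550 genes -0.07. Tpi1 did not reach 10 CPM, so it could not be called and is not among the 8550. Its log2 ratio of -0.53 still enters the median of the 10. Of the genes tested, 1698 reached 100 CPM in each library, as did 6 members. For these 1698 the median was 0.02 and 4.48% were at least 2-fold lower.

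**Figure D1:**
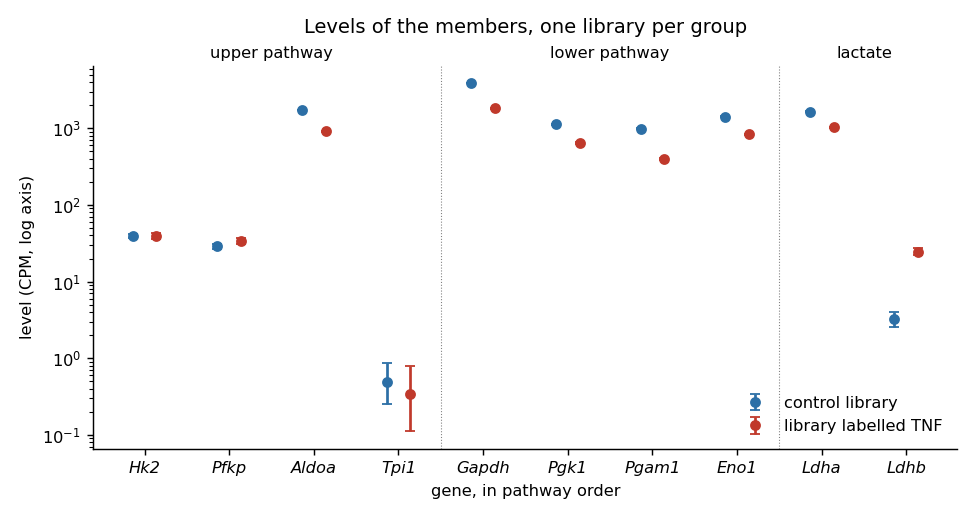
Level of each member in CPM on a log axis, in pathway order, in the control library (blue) and the library labelled TNF (red), with exact Poisson 95% intervals. Aldoa, the 4 lower pathway genes and Ldha lie lower in red, Hk2 is near equal, and Ldhb lies higher in red.

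Together the 10 members took up 1.08% of all counts in the control library and 0.574% in the library labelled TNF. The same was seen within cells. After every cell was thinned to 1700 counts, the summed counts of the members per cell had a median of 18 in 4753 control cells, with the middle 50% of cells from 14 to 22. In 2728 cells of the library labelled TNF the median was 9, with the middle 50% from 7 to 12. Of those cells, 4.14% reached the control median, and 7.07% of control cells were at or below the median of the library labelled TNF. The lower sum was thus seen in most cells of that library. Nearly all of the sum came from the abundant members named above, with Gapdh alone at 3863 of 10840 CPM in the control library. It therefore says little of Hk2, Pfkp, Tpi1 and Ldhb.

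**Figure D2:**
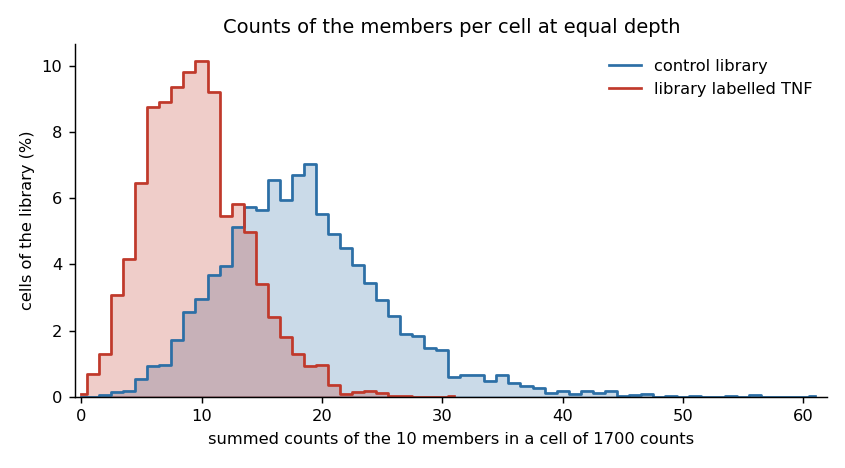
Distribution of the summed counts of the 10 members per cell after thinning to 1700 counts, as a percentage of the cells of each library (control in blue, labelled TNF in red). The medians are 18 and 9 counts, and most cells of the library labelled TNF lie to the left of the control median.

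In the upper pathway, Hk2, which phosphorylates glucose on entry, was at 39.6 CPM in the library labelled TNF (36.4 to 42.9, exact Poisson interval) and 39.2 CPM (36.8 to 41.8) in the control library. The ratio was 1.01 (0.908 to 1.12, exact conditional binomial), so no difference was detectable at this depth. Pfkp, an isoform of the enzyme that commits the sugar to glycolysis, stood at 33.8 CPM (30.8 to 36.9) and 29.1 CPM (27.0 to 31.4), a ratio of 1.16 (1.03 to 1.30). Its direction turned to 0.945 when cells were thinned to 1700 counts.

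Aldoa, which cleaves the sugar into 3-carbon sugars, departed from these kinases. Its level was 908 CPM (892 to 923) in the library labelled TNF and 1732 CPM (1716 to 1749) in the control library. The ratio was 0.524 (0.514 to 0.534). Tpi1, which interconverts the products of aldolase, had 5 counts in the library labelled TNF and 12 in the control library, and its ratio of 0.691 had an interval of 0.191 to 2.11. These are 0.342 and 0.496 CPM, although the enzyme is usually abundant. RefSeq lists 3 pseudogenes named after Tpi1, and whether its reads were assigned elsewhere was not tested. Its direction cannot be read from so few counts.

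All 4 lower pathway genes were lower in the library labelled TNF. Gapdh, which makes the NADH of glycolysis, stood at 1830.3 CPM (1808 to 1852) there and 3863 CPM (3838 to 3888) in the control library. Its ratio was 0.474 (0.467 to 0.480). Pgk1, the first step that returns ATP, stood at 642 CPM (629.5 to 656) and 1124 CPM (1110.3 to 1137), a ratio of 0.572 (0.558 to 0.585). Pgam1, which moves the phosphate before enolase acts, had the smallest ratio of the members, with 394 CPM (384 to 404) against 986 CPM (973 to 998), a ratio of 0.399 (0.388 to 0.411). It ranked 299 from the lowest of the 8550 genes. Eno1, which makes phosphoenolpyruvate, stood at 833 CPM (818 to 847) and 1416 CPM (1401 to 1431), a ratio of 0.588 (0.576 to 0.600). Gapdh and Pgam1 were the 2 members called lower. With libraries scaled by TMM factors, which add 0.16 to every log2 ratio, Gapdh left the call at a ratio of 0.531 and Pgam1 stayed at 0.447, or 1 member lower beside 5.36% of genes, with Ldhb as the 1 higher beside 8.58%.

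RefSeq lists 79 pseudogenes named after Gapdh, 30 after Eno1, 30 after Ldha, 13 after Pgam1, 9 after Aldoa, 8 after Pgk1, 1 after Ldhb and none after Hk2 or Pfkp. The sources used here do not say how reads that match such copies were counted, so the levels of these genes are uncertain. The 6 members that were lower are thus also members with several listed copies, and the part of this in the result was not tested.

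The upper pathway had a median log2 ratio of -0.26 over its 4 members and the lower pathway one of -0.94, a difference of 0.68. The upper median lay between genes that did not move together, since Aldoa had a log2 ratio of -0.93, within the range of the lower pathway (-1.32 to -0.77), while Hk2 and Pfkp had 0.01 and 0.21. With Tpi1 left out because of its few counts, the difference was 0.95. By summed counts, where Aldoa makes up most of the upper pathway, the difference was 0.12, from ratios of 0.545 for the upper and 0.501 for the lower members. Over all genes of the upper and lower lists at 10 CPM or more, members included, the difference was 0.59. With members left out, 4 upper genes had a median of -0.23 and 2 lower genes one of -0.045, so the direction did not hold there. The contrast of upper with lower pathway thus depended on the genes taken and on whether genes or counts were weighed. Among the upper members it rested on Hk2 and Pfkp.

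The other isoforms and steps show how far this pattern reached. Among further upper pathway genes at 10 CPM or more, Hk1, the housekeeping hexokinase, stood at 119 and 137 CPM (ratio 0.873, 0.823 to 0.926), and Gpi, which converts glucose 6-phosphate to fructose 6-phosphate, at 362 and 436 CPM (ratio 0.829, 0.802 to 0.857). The ratio of Hk1 turned to 1.01 with median-of-ratios size factors. The phosphofructokinases were unequal. Pfkl, the liver type, was at 35.5 against 62.95 CPM (ratio 0.564, 0.510 to 0.624) and Pfkm, the muscle type, at 51.4 against 44.1 CPM (ratio 1.16, 1.06 to 1.28). As a result Pfkl made up 29.5% (27.3 to 31.6, exact binomial) of phosphofructokinase counts in the library labelled TNF and 46.2% (44.5 to 47.9) in the control library, while the summed counts of the 3 isoforms had a ratio of 0.886 (0.836 to 0.939).

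In the lower pathway, Pkm, the pyruvate kinase of most tissues, was at 653 against 871 CPM (ratio 0.749, 0.731 to 0.768). Eno3, the muscle enolase, went the other way at 36.2 against 28.8 CPM (ratio 1.25, 1.12 to 1.41). Counts of an isoform are shares of counts, not of molecules, since gene length was not taken into account.

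Ldha and Ldhb went in opposite directions. Ldha stood at 1035 CPM (1018 to 1052) in the library labelled TNF (15114 counts). The control library had 1647 CPM (1631 to 1664), or 39882 counts. Its ratio was 0.628 (0.616 to 0.640). Ldhb stood at 24.4 CPM (21.9 to 27.0), from 356 counts, and 3.26 CPM (2.58 to 4.07), from 79 counts. Its ratio of 7.47 (5.84 to 9.66) placed it at rank 8538 of 8550 from the lowest. Ldhb reached 10 CPM only in the library where it was high, so its call and rank among the genes tested are conditional on that level. The odds of an Ldhb count over an Ldha count were 11.9 times higher (9.29 to 15.4, exact conditional) in the library labelled TNF, a value in which the scaling of the libraries cancels. Ldhb nevertheless made up 2.30% (2.07 to 2.55) of the counts of both subunits there and 0.198% (0.157 to 0.246) in the control library, so that Ldha counts prevailed in both.

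At 1700 counts per cell, an Ldhb count was found in 3.41% (2.76 to 4.16) of 2728 cells labelled TNF and 0.421% (0.257 to 0.649) of 4753 control cells, a difference of 2.99 percentage points (2.30 to 3.76). Cells with and without an Ldha count did not differ in Ldhb beyond their intervals. In the library labelled TNF, 3.51% (2.77 to 4.38) of 2138 cells with an Ldha count and 3.05% (1.82 to 4.78) of 590 cells without held an Ldhb count. In the control library these were 0.370% (0.212 to 0.601) of 4320 cells and 0.924% (0.252 to 2.35) of 433 cells. The highest thinned count in a cell was 2, so the shares rest mostly on single counts. Whether free RNA gave some of these counts was not tested, because no cell type that should lack Ldhb was present.

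The 6 members with lower levels were also found in fewer cells at equal depth. Pgam1 had the largest gap, with 47.1% (45.2 to 49.0) of cells in the library labelled TNF and 79.5% (78.3 to 80.6) in the control library. Pgk1 was found in 61.2% and 81.6%, Aldoa in 75.5% and 94.3%, Eno1 in 70.6% and 86.4%, and Ldha in 78.4% and 90.9%. Gapdh, near saturation, was found in 93.0% and 99.5%. These 6 differences had intervals below 0. The share of all genes with such an interval was not computed, so the count of 6 has no background beside it. Hk2 (6.34% and 5.93%, difference 0.41 percentage points, -0.73 to 1.59) and Pfkp (4.99% and 5.30%, difference -0.32, -1.35 to 0.76) had intervals that held 0, as did Tpi1 with 3 and 2 cells. Thinning left out 729 and 959 shallower cells. Without it, at median depths of 3566 and 2902.5 counts, Pgam1 was found in 68.2% and 88.5%, Ldhb in 7.84% and 1.28%, and Pfkp in 12.3% and 10.8% of cells.

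**Figure D3:**
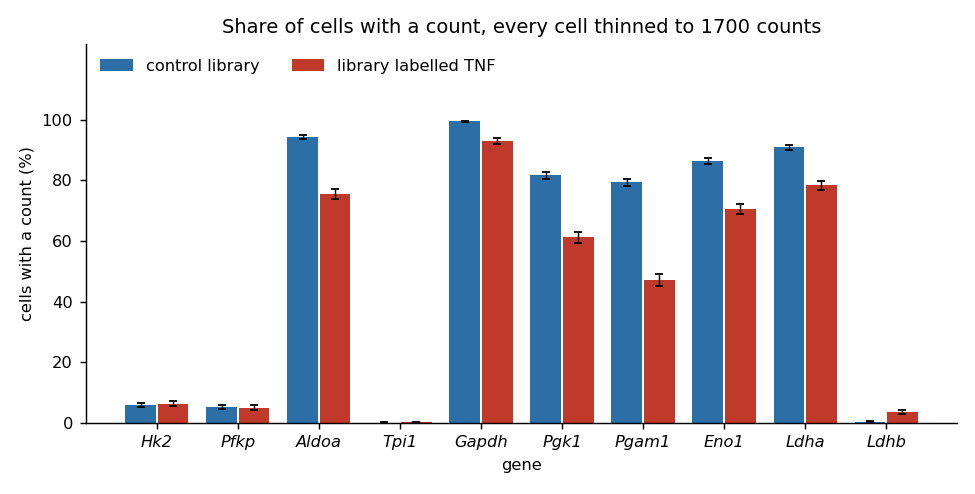
Percentage of cells with a count of each member after every cell was thinned to 1700 counts, in the control library (blue bars) and the library labelled TNF (red bars), with exact binomial 95% intervals. Red bars are shorter for Aldoa, Gapdh, Pgk1, Pgam1, Eno1 and Ldha and taller for Ldhb.

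Cells of each library were clustered separately, and 5 clusters per library held at least 50 cells. Clusters share a library and are no replicates. For Aldoa, Gapdh, Pgk1, Pgam1, Eno1 and Ldha, every cluster of the library labelled TNF lay below every control cluster, which holds for 22.4% of the 8550 genes. For Ldhb every one lay above, which holds for 15.6%. Ldhb is among these genes only through its level in the library labelled TNF, so its place beside that share is conditional too. Pgam1 ranged from 359 to 443 CPM over the clusters labelled TNF and from 827 to 1136 CPM over the control clusters. Gapdh ranged from 1677 to 2081 CPM and from 3235 to 4470.3 CPM. Ldha came closest to touching, with at most 1211 CPM in a cluster labelled TNF and at least 1284 CPM in a control cluster.

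Relative to its level, Ldhb varied most among the clusters of the library labelled TNF, Tpi1 aside. It was highest in cluster 0, at 36.8 CPM (30.2 to 44.4) in 570 cells, and lowest in cluster 4, at 13.9 CPM (7.19 to 24.3) in 191 cells. Control cluster 3, with 4.82 CPM (3.50 to 6.47) in 1590 cells, was the highest of the control clusters and also had the lowest Ldha and Gapdh levels of them. Hk2 and Pfkp levels overlapped between the libraries, Hk2 from 34.4 to 53.2 CPM against 26.1 to 50.6 CPM. The control cluster with the lowest Hk2 was cluster 0, which had a median of 1845 counts per cell and 5.74% mitochondrial counts, the highest share of all clusters. The part of depth and cell quality in that value was not tested.

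**Figure D4:**
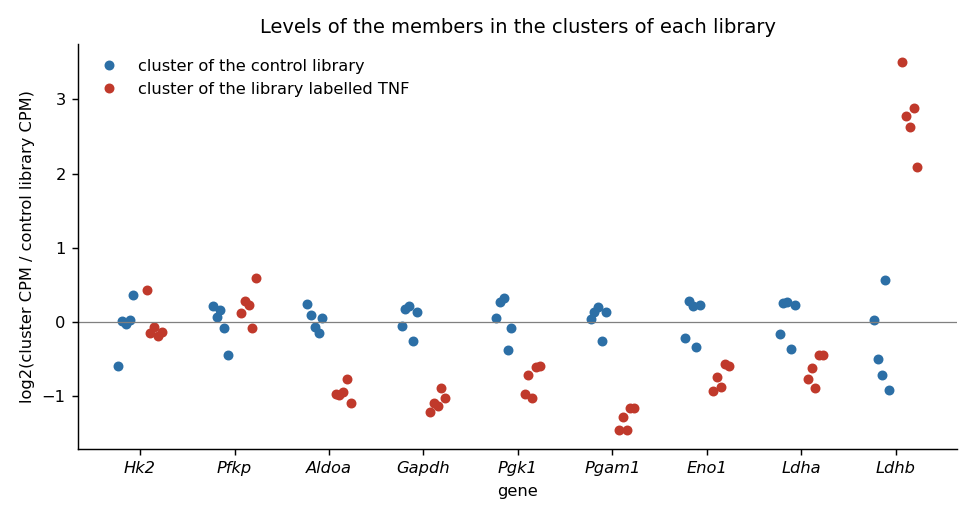
Level of each member in each cluster of at least 50 cells, as the log2 of its CPM over that of the whole control library, for control clusters (blue) and clusters of the library labelled TNF (red). Red points lie below all blue points for 6 members and above them for Ldhb, and overlap for Hk2 and Pfkp. Tpi1 is left out because some clusters held no count.

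Within each cell cycle phase and each depth class, Aldoa, Gapdh, Pgk1, Pgam1, Eno1 and Ldha had ratios below 1, and Ldhb had ratios above 1. Pfkp also had ratios above 1, but apart from cells called G2M (1.01 to 1.45) its intervals held 1. Hk2 lay on both sides of 1, from 0.877 in cells called S to 1.20 in a depth class, and Tpi1 had too few counts to be read. Within cells called G1, G2M or S, Pgam1 had ratios from 0.395 to 0.425, Gapdh from 0.458 to 0.494, Ldha from 0.622 to 0.652 and Ldhb from 6.39 to 9.60. With the cells of each library split into 4 depth classes of equal size, Pgam1 ranged from 0.361 to 0.430 and Ldha from 0.554 to 0.685. Matching classes differed in depth, with median counts of 1404 against 1636.5 (control) in class 1 and 4526 against 3816 in class 3. Ldhb ranged from 3.90 (1.84 to 8.82) in the shallowest class, where 20.05 CPM was set against 5.14 CPM, to 8.82 (6.32 to 12.6) in the deepest.

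The members that were lower also varied together among the clusters of a library. Over 10 clusters, on log2(CPM + 1) levels centred within each library, Ldha had a Pearson r of 0.973 with Eno1, 0.938 with Pgam1, 0.934 with Gapdh and 0.845 with Pgk1, but 0.105 with Aldoa. Among 3646 genes, those most like Ldha were Nutf2 (0.976), Eno1, Plp2 (0.966), Eif5a (0.962) and Pebp1 (0.958). Those most like Ldhb were Zfp68 (0.945), Amotl2 (0.933), Klhl29 (0.919), Grk5 (0.919) and Il6st (0.917), and its r with Ldha was -0.715. The control clusters held only 5 to 44 Ldhb counts each, so the r values of Ldhb carry large counting error. The genes named are the highest of 3646 over only 10 clusters, and how high r comes by that choice alone was not tested. The clusters differ in depth and share 2 libraries, so these values describe them only. Between single cells at 1700 counts the highest r of any pair of members was 0.276 in the control library, for Gapdh with Ldha, and 0.141 in the library labelled TNF, for Pgk1 with Ldha.

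Of 48 other genes of carbohydrate metabolism at 10 CPM or more, 3 were called lower and 1 higher, beside 8.19% and 5.27% of all genes tested, so neither count stood above the background. Of the 48, 34 had a ratio below 1, as did 53.8% of all genes tested, and the median log2 ratio was -0.27, against -0.07 for all. None of the lists reached as low a median as the 4 lower pathway members. With TMM factors, 2 of the 48 were lower and 2 higher, beside 5.36% and 8.58% of all genes tested. Pgm2 left the call (0.559) and Pdhb entered it (2.01). Under this scaling 28 of the 48 had a ratio below 1. Their median log2 ratio was then -0.10, against 0.09 for all genes tested. With total counts, the called genes were Myc, Ldhc and Pgm2, which were lower, and Fbp2, which was higher. Myc and Ldhc reached 10 CPM only in the control library, where they were high, so their calls are conditional on that level. Ldhc, the lactate dehydrogenase known from testis, was at 4.38 against 14.4 CPM (ratio 0.305, 0.230 to 0.399), from 64 and 348 counts, and Ldhd, which acts on D-lactate, at 9.72 against 11.6 CPM (ratio 0.835, 0.677 to 1.02). Of Ldha, Ldhb, Ldhc and Ldhd, Ldhb alone had a ratio above 1.

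Around lactate, the monocarboxylate transporter Slc16a1 was at 58.7 against 79.0 CPM (ratio 0.743) and Slc16a7, a transporter with high affinity for pyruvate, at 98.7 against 64.6 CPM (ratio 1.53, 1.42 to 1.64). Bsg, a chaperone of the Slc16a1 transporter, was at 1970 against 1474 CPM (ratio 1.34, 1.32 to 1.36). Slc16a3, the usual lactate exporter of glycolytic cells, had 1 and 4 counts. For glucose uptake, Slc2a1, the main glucose transporter of growing cells, stood at 87.1 CPM and 97.5 CPM. Its ratio of 0.893 (0.834 to 0.957) turned to 1.03 with size factors.

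Of 6 regulators of glycolysis tested, 1 was lower and 0 were higher, beside 8.19% and 5.27% of all genes tested. With so few genes in a list, these counts do not set it apart from that background. Myc stood at 8.90 against 57.7 CPM (ratio 0.154, 0.128 to 0.185), and Hif1a, the oxygen-regulated subunit of HIF-1, at 170 against 256 CPM (ratio 0.662, 0.632 to 0.694). Pfkfb2, whose product raises the activator of phosphofructokinase, was at 25.5 against 17.7 CPM (ratio 1.44). HIF-1 is regulated mainly as a protein, which was not measured.

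Where pyruvate enters mitochondria, 10 genes were tested and 0 called, beside 8.19% lower and 5.27% higher of all genes tested. Pdhb, a subunit of pyruvate dehydrogenase, was at 230 against 128 CPM (ratio 1.80, 1.71 to 1.89), while Pdk1 and Pdk3, kinases that inhibit that enzyme, were at ratios of 0.717 (0.619 to 0.828) and 0.692 (0.654 to 0.731). In the pentose phosphate pathway, 5 genes were tested and 0 called, beside the same shares. Lists this short can hold no call at those shares. Rpia, which isomerizes ribose 5-phosphate, was at 30.3 against 56.1 CPM (ratio 0.541, 0.485 to 0.603) and Taldo1, transaldolase, at 474 against 345 CPM (ratio 1.37, 1.33 to 1.42).

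Of 7 genes of glycogen and hexose metabolism, Pgm2, a phosphopentomutase, was called lower at 24.2 against 48.4 CPM (ratio 0.499, 0.442 to 0.563). Of 2 gluconeogenesis genes tested, Fbp2, the muscle fructose bisphosphatase that opposes phosphofructokinase, was called higher at 22.2 against 10.9 CPM (ratio 2.04, 1.73 to 2.41). The intervals of both hold a ratio under 2-fold, and of all genes tested 8.19% were called lower and 5.27% higher. The 5 genes of the shuttles that carry NADH electrons into mitochondria had ratios from 0.785 for Mdh1 to 1.02 for Gpd2.

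**Figure D5:**
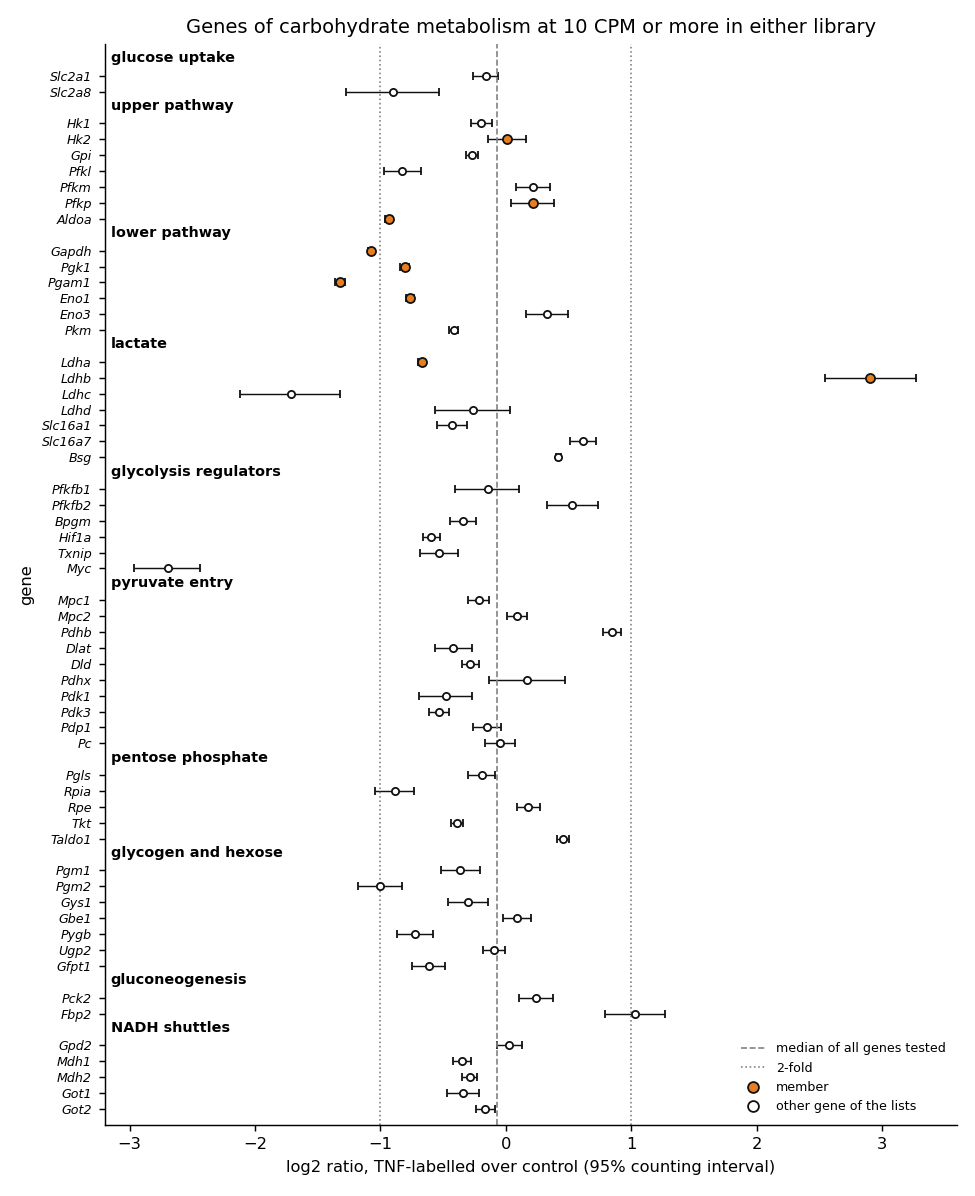
Log2 ratio (TNF-labelled over control) with 95% counting intervals of every listed gene of carbohydrate metabolism at 10 CPM or more in either library, by list, with members in orange, the median of all 8550 genes dashed and 2-fold dotted. Pgam1 and Gapdh lie left of the 2-fold line and Ldhb at 2.90 lies farthest right.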

How the data were processed

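The authors deposited whole-number counts per gene and cell for each library. The genome build was Rnor_5.0, per the submitters' processing notes. Aligner, counting tool, cell filter and use of molecular identifiers were not given in the sources used. The intervals of levels and ratios cover counting error only and leave out the spread between cells. If the counts are not of unique molecules, these intervals are too narrow even for counting error. A cell needed 500 counts, 300 genes and no more than 20% mitochondrial counts. Its counts were summed per library and divided by its total (1 count was worth 0.0685 and 0.0413 CPM). A library under 3 counts entered a ratio at 3. Conditions were not tested, each being 1 library. Phases and clusters came from scanpy 1.11.5 (2000 variable genes, 30 components, 15 neighbours, Leiden resolution 0.5), TMM factors from edgeR 4.0.16. Computations were tested on simulated data. The members and lists were chosen with earlier results of these data known. By rule, all members were named, listed genes at 10 CPM or more were counted and could be named, and the 5 genes most like each of Ldha and Ldhb at a mean of 50 CPM or more were named. The fixed rule took clusters of at least 50 cells. The genes Pgk2, Tigar, Pdha1, Pgd and G6pc were not analysed here, 1 other listed gene is not reported here, and Pcx was read under its symbol Pc. Doublets were not removed. Some alternatives, leaving out shared barcodes and ratios within phases, depth classes and clusters, were chosen after seeing the data.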

Additional observations from a re-analysis of the deposited data

How the results depend on the processing

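The 2 members called lower became 1 with TMM factors and 1 with median-of-ratios size factors, and 6 at 1.5-fold. The 1 member called higher became 0 with a minimum of 50 CPM, which Ldhb does not reach. The median log2 ratio of the members was -0.55 with TMM factors and -0.51 with size factors, which shift every log2 ratio by 0.16 and 0.21. The difference of upper and lower pathway medians moved most, to 0.95 with Tpi1 left out, 1.01 in cells called G1, 1.02 with thinned cells, 0.787 with the mean of the cells' own CPM, 0.819 without Gapdh and Aldoa, 0.914 without the dividing cluster of each library and 0.122 by summed counts. Its upper median rests in part on the 5 and 12 counts of Tpi1, whose ratio ranged from 0.680 to 1.74. Without thinning, 2 members in place of 1 had a larger share of cells, the second being Pfkp, whose ratio of 1.16 became 0.945 with thinned cells. The cause of these moves was not tested further. Ratios ranged from 0.384 to 0.461 for Pgam1, 0.466 to 0.547 for Gapdh, 0.593 to 0.725 for Ldha and 6.25 to 8.71 for Ldhb over the 10 alternatives. Ldhb against Ldha ranged from 10.4 to 14.7. No paired analysis was possible because each group has 1 library. Few counts limit Tpi1, and Ldhb in the control library.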
